A study of Mus musculus with 20 samples.

Results

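The regions described here are open promoters at which neither of a pair of opposed histone marks on lysine 27 of histone H3 was reproducible between the WT libraries. They were chosen by WT values. A promoter region of the authors' consensus ATAC-seq table was left out when H3K27ac peaks of both WT libraries overlapped it. It was also left out when H3K27me3 broad peaks of both WT libraries did, with 1 bp counted as an overlap. All other promoter regions were members, so a peak in a lone WT library was allowed. No WT peak of either mark was found on 1091 members. Of 13909 consensus promoter regions, 2441 (17.5%) were members, which is 7.60% of all 32120 consensus regions. The members were annotated to 2277 genes, of which 144 had more than 1 member region. A promoter in the authors' annotation lies within 1000 bp of a transcription start site.

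The study concerned the transcription factor Tcf4 and its loss in the Nkx2.1 lineage of the mouse neocortex. GFP-positive cells were sorted from the neocortex of pups at postnatal day 7 or 8. WT mice carried Nkx2.1-Cre and the Ai3 reporter, and Tcf4 cKO mice carried Tcf4 f/f with the same Nkx2.1-Cre and Ai3, so that Cre and reporter were shared by both genotypes. In the Tcf4-tag mouse, Cre switches on an HA and Flag tag fused to the end of Tcf4 at its own locus. Open chromatin was read by ATAC-seq and 3 histone marks (H3K27ac, H3K27me3 and H3K4me1) by Cut&Tag, with 2 libraries of 50000 cells for each assay and genotype. Tcf4 occupancy had 2 anti-Flag libraries from 200000 nuclei each. The labels do not say that libraries came from separate animals, so p-values measure only the spread between these libraries, which may be technical. Nkx2.1-Cre acts in progenitors and all their progeny, so each library is a mixture of cell types.

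H3K27ac is laid down at active promoters and enhancers, and H3K27me3 is laid down by Polycomb repressive complex 2 at silenced developmental genes. The marks sit on the same lysine, so a single histone tail cannot carry both. H3K4me1 is typical of enhancers and of the flanks of promoters. Tcf4 is a basic helix-loop-helix factor that binds E-boxes as homodimers or as heterodimers with tissue-specific factors of the same class.

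Promoter sequences of 10 members are shown to let their base composition be compared, since CpG content and E-boxes recur in the results. Each run holds 121 bases around the highest ATAC-seq summit of a library, upstream of an annotated start of the gene, which is not always its first. The runs lie outside annotated exons and are read 5′ to 3′ on the gene's strand in GRCm38 (mm10). Capitals mark CANNTG, the E-box core. The first 4 belong to the most accessible member, Sox12, and to transcription factor genes of glial cells.
Sox12 (chr2:152398824-152398944, minus strand): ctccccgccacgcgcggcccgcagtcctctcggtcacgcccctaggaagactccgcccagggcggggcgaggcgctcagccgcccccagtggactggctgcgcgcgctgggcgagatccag
Nfib (chr4:82506437-82506557, minus strand): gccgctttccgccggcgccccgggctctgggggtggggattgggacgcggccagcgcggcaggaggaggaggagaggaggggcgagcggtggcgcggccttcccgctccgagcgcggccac
Olig2 (chr16:91225266-91225386, plus strand): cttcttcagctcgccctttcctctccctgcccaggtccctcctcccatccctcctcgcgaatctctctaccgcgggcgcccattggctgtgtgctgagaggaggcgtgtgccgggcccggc
Nfix (chr8:84774482-84774602, minus strand): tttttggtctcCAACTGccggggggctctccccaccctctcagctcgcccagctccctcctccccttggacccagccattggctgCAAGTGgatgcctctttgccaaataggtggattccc
The windows of Sox12, Nfib and Olig2 held 16, 17 and 9 CpG dinucleotides and no E-box core, and the window of Nfix held 2 CpG dinucleotides and 2 E-box cores. The next 3 belong to members whose accessibility was lower in Tcf4 cKO and that Tcf4 covered in both libraries.
Cspp1 (chr1:10056555-10056675, plus strand): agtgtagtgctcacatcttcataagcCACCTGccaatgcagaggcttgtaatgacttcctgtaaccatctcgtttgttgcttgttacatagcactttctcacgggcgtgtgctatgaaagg
Sirt2 (chr7:28784069-28784189, plus strand): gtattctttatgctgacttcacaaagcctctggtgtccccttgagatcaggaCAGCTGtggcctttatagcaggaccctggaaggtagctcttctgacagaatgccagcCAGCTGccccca
1700010L04Rik (chr7:82851059-82851179, plus strand): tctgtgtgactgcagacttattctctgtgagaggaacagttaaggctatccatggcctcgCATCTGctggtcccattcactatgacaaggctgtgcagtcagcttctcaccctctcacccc
They held 1, 2 and 1 E-box cores and 3, 0 and 1 CpG dinucleotides. The last 3 belong to a member that was more accessible in Tcf4 cKO, a member that was less accessible and lacked Tcf4, and a member with H3K27me3 in Tcf4 cKO.
Gm15684 (chr8:120046394-120046514, minus strand): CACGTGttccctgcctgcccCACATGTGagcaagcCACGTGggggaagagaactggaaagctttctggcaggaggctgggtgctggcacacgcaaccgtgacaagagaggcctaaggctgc
Itih5l-ps (chrX:150826707-150826827, plus strand): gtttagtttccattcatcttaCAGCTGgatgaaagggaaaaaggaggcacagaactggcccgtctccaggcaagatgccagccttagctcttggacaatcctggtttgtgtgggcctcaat
Mybl2 (chr2:163054528-163054648, plus strand): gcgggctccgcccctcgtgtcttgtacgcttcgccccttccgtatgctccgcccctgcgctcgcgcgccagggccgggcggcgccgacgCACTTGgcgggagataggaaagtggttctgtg
Gm15684, a predicted antisense gene, had 4 E-box cores in its window. The window of Mybl2 had 17 CpG dinucleotides and 3 matches of GGGCGG, the GC box core.

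Not all members were bare of the marks. No peak of either mark in any WT library was found on 1091 members, while 1054 had an H3K27ac peak in 1 WT library alone, 131 an H3K27me3 peak in 1 library alone, and 165 had 1 of each. H3K27ac was on 872 members in WT replicate 1 and on 347 in WT replicate 2. These peaks were weaker than those of acetylated promoters, here the 8911 promoters with H3K27ac in both WT libraries and without H3K27me3 in both. In WT replicate 1 the median fold enrichment over local background was 3.67 on members and 4.71 on acetylated promoters, and the median −log10 q-value was 4.43 and 8.33. In WT replicate 2 the median fold enrichment was 3.60 and 4.53. H3K27me3 peaks in a lone WT library lay on 132 members in replicate 1 and on 164 in replicate 2. Their median fold enrichment was 2.72 and 2.75, beside 2.92 and 2.82 on the 2557 promoters with H3K27me3 in both WT libraries, called Polycomb-marked here. Most Polycomb-marked promoters were also acetylated, as 1808 of the 2557 had H3K27ac in both WT libraries too. The WT peaks of the 2 marks chose the members, so their values are a description without a test. Within 500 bp of the region, both WT libraries had H3K27ac at 76 members (3.11%) and H3K27me3 at 42 (1.72%), and 1010 members (41.4%) had no WT peak of either mark within that distance.

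Members were narrower and less accessible than the other open promoters. Their median width was 887 bp (10th to 90th percentile 598 to 1395 bp), beside 1261 bp for acetylated and 1283 bp for Polycomb-marked promoters. The authors' mean accessibility in WT, in log2 normalized reads, had a median of 7.04 over members, 8.49 over acetylated promoters, 8.10 over Polycomb-marked promoters and 6.34 over the 18211 regions outside promoters, called distal. Only 399 members were above the median of all promoters. ATAC-seq peaks were on 98.1 to 99.3% of members in each of the 4 libraries, and 2330 members had a peak in all 4. The median fold enrichment of members was 6.30 and 6.92 in WT and 6.31 and 6.27 in Tcf4 cKO, and that of acetylated promoters was 9.24 and 9.34 in WT and 8.86 and 8.76 in Tcf4 cKO. Within each library the median was lower on members by 0.43 to 0.55 on the log2 scale, a mean difference of -0.49 ± 0.05 (SD, n = 4 libraries), or 1.40-fold lower (exact sign-flip permutation test, two-sided, p = 0.13, the smallest that 4 libraries allow). The difference from Polycomb-marked promoters was -0.26 ± 0.04 (SD, n = 4), 1.20-fold lower (exact p = 0.13).

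**Figure D1:**
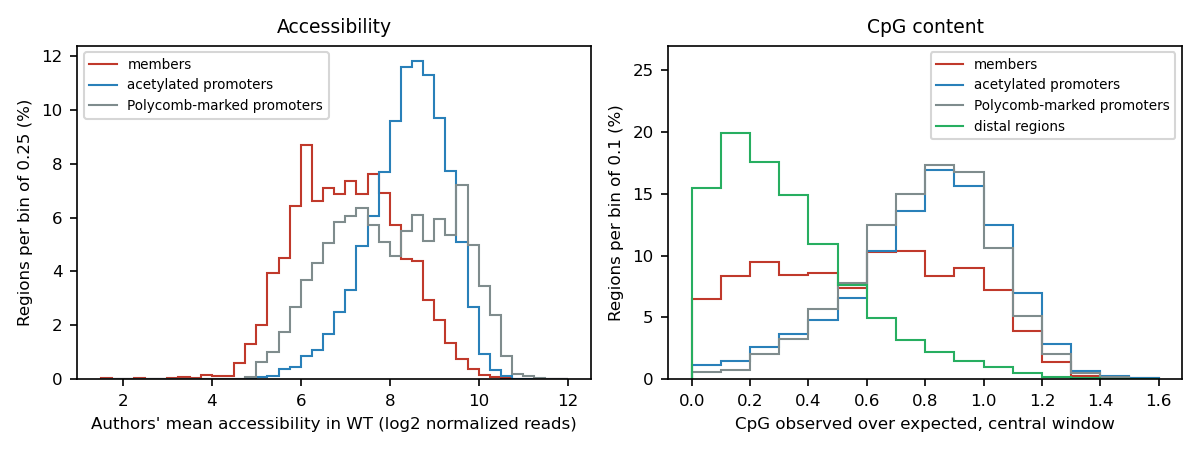
Distribution of accessibility and CpG content, as percent of regions per bin, with the authors' mean WT accessibility in log2 normalized reads on the left and CpG observed over expected in the central 150 bp on the right. Members spread over lower accessibility than acetylated promoters (medians 7.04 and 8.49) and over the whole range of CpG content, between distal regions (mean 0.327) and the marked promoters (means 0.801 and 0.791).

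Base composition and position set members apart from the other open promoters in the same direction. In the central 150 bp the CpG observed over expected ratio averaged 0.594 in members, 0.801 in acetylated promoters, 0.791 in Polycomb-marked promoters and 0.327 in distal regions. A ratio of at least 0.6 was reached by 51.2% of members and by 74.8% of all promoters. The mean GC content was 59.7% in members and 66.4% in acetylated promoters. An annotated start of the nearest gene lay inside the region for 1812 members (74.2%, against 96.8% of acetylated promoters), while 306 members lay upstream and 323 downstream of it. Protein-coding genes were nearest to 2016 members (82.6%, against 95.6%), lincRNA and antisense genes to 197, and pseudogenes to 53. Starts on both strands were inside 7.87% of members, 21.7% of acetylated and 19.0% of Polycomb-marked promoters. For 459 members (18.8%) the same gene had an acetylated promoter elsewhere, and for 145 it had a Polycomb-marked promoter. Repeat-masked bases made up 9.90% of members and 8.0% of acetylated promoters, and 32 members (1.31%) had over 50% of their 32-base words at more than 1 place in the genome, where reads cannot be placed with certainty.

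Motif cores were searched on both strands in the central 150 bp of each region. The E-box core CANNTG was in 45.3% of members, 34.8% of acetylated promoters, 36.1% of Polycomb-marked promoters, 36.9% of all promoters and 58.3% of distal regions. Its form CAGCTG, which CANNTG includes, was in 11.3% of members and 9.39% of all promoters. The GC box core GGGCGG was in 28.5% of members and 39.8% of all promoters. CCAAT, the core of the NF-Y site, was in 17.7% and 13.8%, and CCGGAA, an ETS core, was in 8.19% and 11.5%. TTGGCA, the half-site of NFI factors, was in 8.11% of members and 4.80% of all promoters. CTTTGT, a SOX core, was in 10.2% and 6.51%, and TGANTCA, the AP-1 core, in 2.99% and 1.61%. Each share of members other than that of CCAAT lay between the values of acetylated promoters and distal regions. The shares are descriptions, and the part of GC content, which differed between these sets as given above, was not tested.

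**Figure D2:**
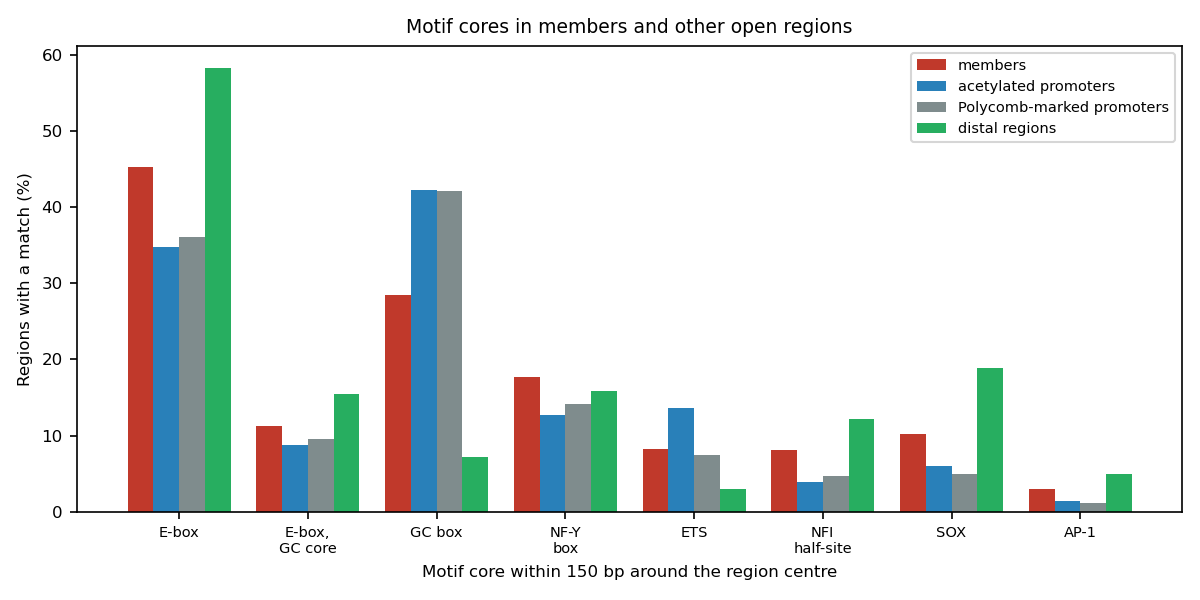
Percent of regions with a motif core in the 150 bp around the region centre, for members, acetylated promoters, Polycomb-marked promoters and distal regions. The E-box core was in 45.3% of members and 34.8% of acetylated promoters, and the GC box core in 28.5% and 42.2%.

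H3K4me1, which the choice of members did not use, was less frequent on members than on the marked promoters. An H3K4me1 peak was on 38.3 and 46.7% of members in the WT libraries (95% Wilson intervals 36.4 to 40.2 and 44.8 to 48.7, which cover the counting of regions only) and on 56.8 and 53.7% in the Tcf4 cKO libraries. Acetylated promoters had 42.4 and 62.5% in WT and 72.5 and 72.9% in Tcf4 cKO. Members were below acetylated promoters in all 4 libraries, by 4.13 to 19.2 percentage points (mean -13.7 ± 6.58 SD, exact sign-flip permutation test, two-sided, p = 0.13). The order turned when a peak had to cover at least 50% of the region: the mean difference was then 1.83 percentage points, from -3.82 to 7.72 (exact p = 0.625), and members were narrower regions. Among regions between the 25th and 75th percentile of promoter widths, a restriction chosen after seeing the data, the difference at 1 bp was -18.8. Compared with Polycomb-marked promoters, members were lower by 28.0 to 35.5 percentage points (mean -31.9 ± 3.29 SD, n = 4, exact p = 0.13).

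Between the genotypes, the H3K4me1 share of members averaged 42.5% (SD 6.0, n = 2) over the WT libraries and 55.3% (SD 2.14, n = 2) over those of Tcf4 cKO, a difference of 12.8 percentage points with no overlap of the groups. The exact permutation test gave p = 0.333, the smallest that 2 against 2 libraries allow. The same difference was 20.3 points for acetylated promoters, 13.1 for Polycomb-marked promoters and 12 for all consensus regions, so the members' value lay near that of all regions. The Tcf4 cKO libraries also held more H3K4me1 peaks in the genome, 72790 and 65049 against 51510 and 59526, and the part of this in the difference was not tested. The heights of the peaks were compared next. Of 650 members with an H3K4me1 peak in all 4 libraries, limma called 0 higher and 0 lower at an adjusted p under 0.05, as over all 14029 regions fitted (0% in each direction). At an unadjusted p under 0.05, 23 members were higher (3.54%, against 3.51% of all regions fitted) and 26 lower (4.0%, against 3.93%), which is near the background.

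**Figure D3:**
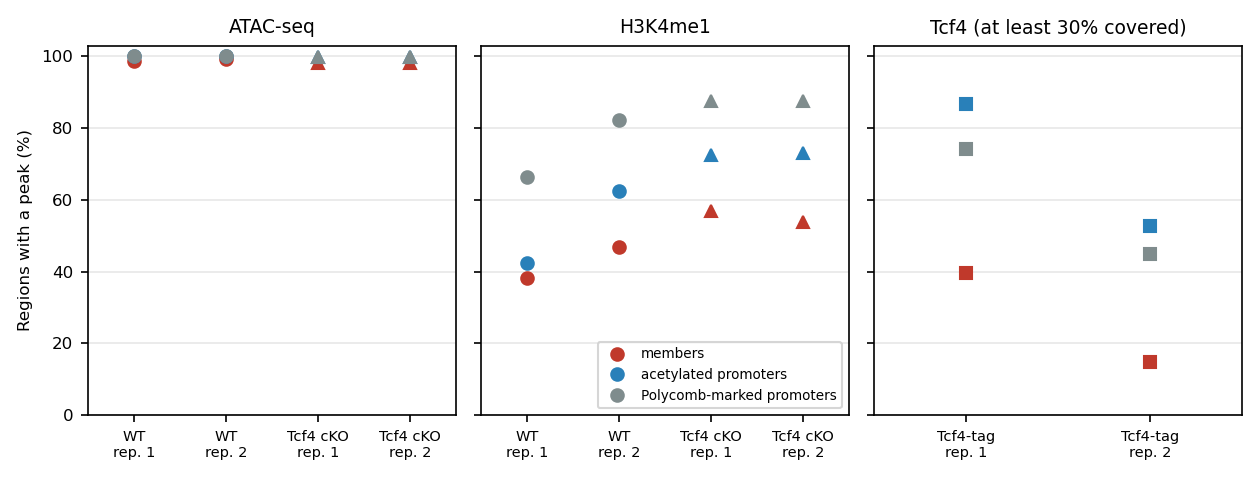
Percent of regions with a peak in each library for ATAC-seq (left), H3K4me1 (middle) and Tcf4 with at least 30% of the region covered (right), for members, acetylated promoters and Polycomb-marked promoters. For Tcf4, members stood at 39.7 and 14.7%, below acetylated promoters at 86.8 and 52.6% in the same libraries.

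Within the members, H3K4me1 and accessibility ran in opposite directions. The 611 least accessible members had H3K4me1 in both WT libraries at 47.0%, and the next 3 bands of 610 members at 42.0, 24.6 and 10.3%. Over the same bands the CpG ratio averaged 0.374, 0.532, 0.651 and 0.819, and protein-coding genes made up 73.3, 78.0, 87.7 and 91.3%. In all, 756 members (31.0%) had H3K4me1 in both WT libraries, 563 in 1 library and 1122 in neither. The 5 members with the strongest H3K4me1 in WT, a choice that favours WT values above those of Tcf4 cKO, were Zfp456, Tcaf2, Mylk3, Slc27a2 and Gm6361. Zfp456, a zinc finger gene with 34.2% of its 32-base words at more than 1 place in the genome, had a fold enrichment of 7.43 and 7.40 in WT and 6.48 and 6.21 in Tcf4 cKO. Tcaf2, which codes for a regulator of the cold channel Trpm8, had 6.91 and 7.10 in WT and 5.59 and 6.24 in Tcf4 cKO. Mylk3, the cardiac myosin light chain kinase, had 6.83 and 7.50 in WT and 5.65 and 6.46 in Tcf4 cKO. WT was higher without overlap in these 3 and in the processed pseudogene Gm6361, with 6.52 and 6.45 against 5.96 and 5.60, and none of the 5 was called by limma. These values are not centred, and the median H3K4me1 fold enrichment over all regions was also higher in WT (4.04 and 4.08, against 3.86 and 3.92 in Tcf4 cKO). Slc27a2, a fatty acid transporter and acyl-CoA synthetase, overlapped between the genotypes, with 6.48 and 7.46 in WT and 7.86 and 6.89 in Tcf4 cKO.

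Tcf4 was found on members less often than on the marked promoters. With at least 30% of the region covered, Tcf4 held 39.7% of members in replicate 1 and 14.7% in replicate 2 (95% Wilson intervals 37.8 to 41.7 and 13.3 to 16.1). The shares were 86.8 and 52.6% for acetylated promoters and 74.1 and 45.0% for Polycomb-marked promoters. The difference from acetylated promoters was -47.1 and -37.9 percentage points (mean -42.5 ± 6.47 SD, exact sign-flip permutation test, two-sided, p = 0.5, the smallest that 2 libraries allow). It was -23.9 among regions between the 25th and 75th percentile of members' accessibility, a restriction chosen after seeing the data. The libraries held 28606 and 16834 Tcf4 peaks, and the part of this in their shares was not tested. Against Polycomb-marked promoters the mean difference was -32.3 ± 2.85 percentage points (SD, n = 2, exact p = 0.5).

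Tcf4 held 299 members (12.2%) in both libraries. The share rose over the bands of accessibility, from 3.44% of the least accessible through 7.05 and 12.5 to 26.1% of the most accessible. Among the 6 members with the strongest Tcf4 peaks, Trav3-1, a T-cell receptor variable segment, had a Tcf4 fold enrichment of 10.8 and 11.5, with 43.9% of its words at more than 1 place in the genome. The lincRNA 1700010L04Rik had 10.1 and 10.8, and Gm22652, a snoRNA, had 9.64 and 9.81. B4galt5, which codes for a lactosylceramide synthase, had 7.75 and 7.78, and its ATAC-seq values of 7.61 and 7.57 in WT and 7.61 and 7.92 in Tcf4 cKO overlapped. Lrrc4c, the netrin-G ligand of synapses, had a Tcf4 fold enrichment of 7.82 and 7.70. Sirt2, the tubulin deacetylase abundant in oligodendrocytes, had 6.98 and 8.11. Its ATAC-seq peaks stood at 5.28 and 6.89 in the WT libraries and were absent from both Tcf4 cKO libraries, and the authors' mean went from 6.93 to 4.98. This was an alternative Sirt2 promoter, as another promoter of the gene was acetylated.

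In Tcf4 cKO, most members had an authors' mean accessibility within 1 log2 unit of that in WT. The median difference of the authors' means, Tcf4 cKO minus WT, was -0.06 on the log2 scale for members, over a range of -2.98 to 3.00, and -0.10 for all regions. A difference past 1 log2 unit was found upwards in 56 members (2.29%, against 2.87% of all regions) and downwards in 57 (2.34%, against 4.18%). Over all promoters the shares were lower than in members, 0.496% upwards and 0.712% downwards. Of the 56 that were higher, 55 were among the 611 least accessible, and the 57 that were lower fell into the 4 bands as 28, 23, 5 and 1. The bands are cut on the WT mean that enters the difference, which favours higher values in the lowest band. No member above the median accessibility of all promoters passed 1 log2 unit in either direction. The means are the authors' pooled values, given without the spread between libraries.

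**Figure D4:**
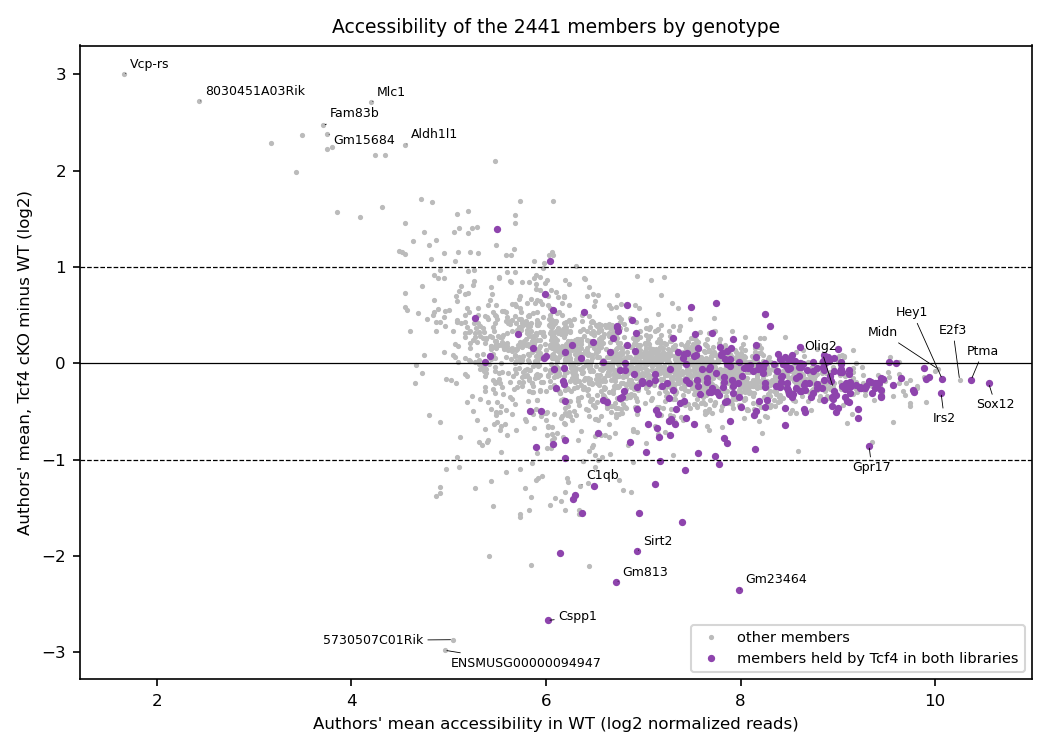
Each of the 2441 members by the authors' mean accessibility in WT (log2 normalized reads, horizontal) and the difference of the authors' means, Tcf4 cKO minus WT (log2, vertical), with members held by Tcf4 in purple and dashed lines at 1 log2 unit either way. Differences past 1 unit narrow towards high accessibility, and 226 of the 299 members held by Tcf4 lie below 0 (75.6%, beside 73.5% of all promoters).

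Members held by Tcf4 leaned to lower accessibility in Tcf4 cKO, at a share near that of all promoters. Their median difference was -0.19, beside -0.11 for all promoters, and 226 of 299 (75.6%) were below 0. The share below 0 was 73.5% for all promoters, 63.5% for all regions and 58.2% for all members. The authors' means are not centred, and the part of this in the shares was not tested. Of the 299 members held by Tcf4, 15 passed 1 log2 unit downwards and 2 upwards, beside 1342 (4.18%) and 921 (2.87%) of all 32120 regions. The 1297 members without any Tcf4 peak had a median of -0.01, with 50.5% below 0, 36 past 1 unit downwards and 47 upwards. The groups also differed in accessibility, with median WT values of 8.03 and 6.58, and over the 4 bands of accessibility the median difference went from 0.18 through -0.01 and -0.08 to -0.16. Acetylated promoters held by Tcf4, of which there were 4561, had a median of -0.14 with 85.0% below 0, near the values of all acetylated promoters, -0.13 and 79.6%. Among the 4561, 19 passed 1 log2 unit downwards and 1 upwards. The part of accessibility in the members' values was not tested.

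Per library, ATAC-seq fold enrichment was tested with limma over the 30379 regions with a peak in all 4 libraries, after centring each library on its median. Of 2330 members tested, 37 (1.59%) were higher in Tcf4 cKO, against 1.56% of all regions tested, and 10 (0.429%) were lower, against 1.64%. The share that was higher was near the background, and the share that was lower was below it. Among promoters, 37 of the 46 regions called higher and 10 of the 30 called lower were members, with 3 higher and 14 lower of 8894 acetylated promoters and 6 and 6 of 2545 Polycomb-marked promoters. The 37 had a low median accessibility of 5.63 in WT. Members without either mark in any WT library gave 25 of the higher and 7 of the lower calls, 2.49 and 0.698% of their 1003 tested. The shares were 0.904 and 0.226% of the 1327 other members tested. Without WT replicate 1 or without WT replicate 2, and without centring, 0 of all regions were called, members included. Without Tcf4 cKO replicate 1, 19 members were called among 213 higher and 277 lower of all regions, and without replicate 2, 30 members among 249 and 412. All 47 kept their sign in each of these fits, but the fits reuse the libraries that chose the 47, so this gives no separate support. The log2 difference of Gm15684, the largest, was 1.51 without WT replicate 1, 1.03 without WT replicate 2 and 1.18 without centring.

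Among the members that rose by this test, 30 of 37 were nearest to protein-coding genes, with log2 differences of 0.38 to 1.27. Gm15684, whose promoter sequence with 4 E-box cores is shown above, had a fold enrichment of 4.31 and 3.39 in WT and 9.52 and 7.84 in Tcf4 cKO, a log2 difference of 1.27 ± 0.19 (SE, limma adjusted p = 7.3e-05). It had no Tcf4 peak and had H3K4me1 peaks, at 4.81 and 4.65, in the Tcf4 cKO libraries alone. H3K27me3 was also on it, at 1.79 in WT replicate 2 and at 1.92 and 2.22 in Tcf4 cKO. Apobr, the apolipoprotein B receptor, had 4.27 and 4.01 in WT and 7.17 and 8.84 in Tcf4 cKO, a difference of 1.03 ± 0.19 (adjusted p = 0.00072). The groups did not overlap in either. Gm4491 had 4.35 and 4.84 against 9.40 and 7.84, a difference of 0.99 ± 0.19 (adjusted p = 0.00103). Capzb, the β subunit of the actin capping protein, had 3.64 and 3.57 against 5.71 and 5.78, a difference of 0.76 ± 0.17 (adjusted p = 0.00408) at a promoter with no histone or Tcf4 peak in any library. Maml3, a coactivator of Notch signalling, had 2.45 and 3.21 against 4.05 and 3.84, a difference of 0.58 ± 0.13 (adjusted p = 0.00382). The authors' mean of Maml3 changed less, from 7.01 to 7.07.

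Of the other 32 that rose, 3 are given here that were chosen after their values were seen. Omg, the oligodendrocyte myelin glycoprotein, had a fold enrichment of 3.24 and 4.05 in WT and 5.74 and 5.0 in Tcf4 cKO, and a log2 difference of 0.66 ± 0.16 (limma adjusted p = 0.0134). Entpd2, an ectonucleotidase that splits ATP, had 3.92 and 3.04 against 5.28 and 5.29, a difference of 0.71 ± 0.16 (adjusted p = 0.00801). A2m, the protease inhibitor alpha-2-macroglobulin, had 4.37 and 4.84 against 7.94 and 7.27, a difference of 0.81 ± 0.19 (adjusted p = 0.00661). In all 3 both Tcf4 cKO libraries were above both WT libraries, and the authors' means moved the same way, from 6.10 to 6.84, from 5.11 to 6.51 and from 4.31 to 5.93. The fold enrichment and the authors' means went in the same direction in 34 of 37. Both come from the same ATAC-seq libraries, so this agreement is not independent. The exceptions were 2010013B24Rik, Abt1 and Lmtk3, whose authors' means went from 6.04 to 5.80, from 6.52 to 6.32 and from 7.09 to 7.07.

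Of the 10 members that fell by this test, 2 were nearest to protein-coding genes. The authors' means, which come from the same libraries, had the same direction in 10 of 10. Gm10044, a processed transcript with 2 member regions, had at its region chr14:7773662-7774456 a fold enrichment of 10.7 and 9.43 in WT and 3.96 and 5.28 in Tcf4 cKO, a log2 difference of -1.05 ± 0.19 (limma adjusted p = 0.00072). The pseudogene Itih5l-ps had 10.5 and 10.2 against 4.73 and 5.28, a difference of -0.96 ± 0.18 (adjusted p = 0.00111), with no Tcf4 peak. Gm23464, an snRNA gene, had 8.06 and 7.61 against 3.41 and 4.37, a difference of -0.93 ± 0.19 (adjusted p = 0.00200), and Tcf4 stood on it at 6.45 and 7.29. Tcf4 was also on Evi5, which codes for a Rab GTPase-activating protein, at 5.66 and 7.04. Evi5 had an ATAC-seq fold enrichment of 6.32 and 7.42 in WT and 3.14 and 4.56 in Tcf4 cKO, a difference of -0.77 ± 0.18 (adjusted p = 0.0106). In each of these 4 the libraries of the genotypes did not overlap. Gm16253 had 4.78 and 5.85 against 2.96 and 3.07, a difference of -0.72 ± 0.15 (adjusted p = 0.00267).

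**Figure D5:**
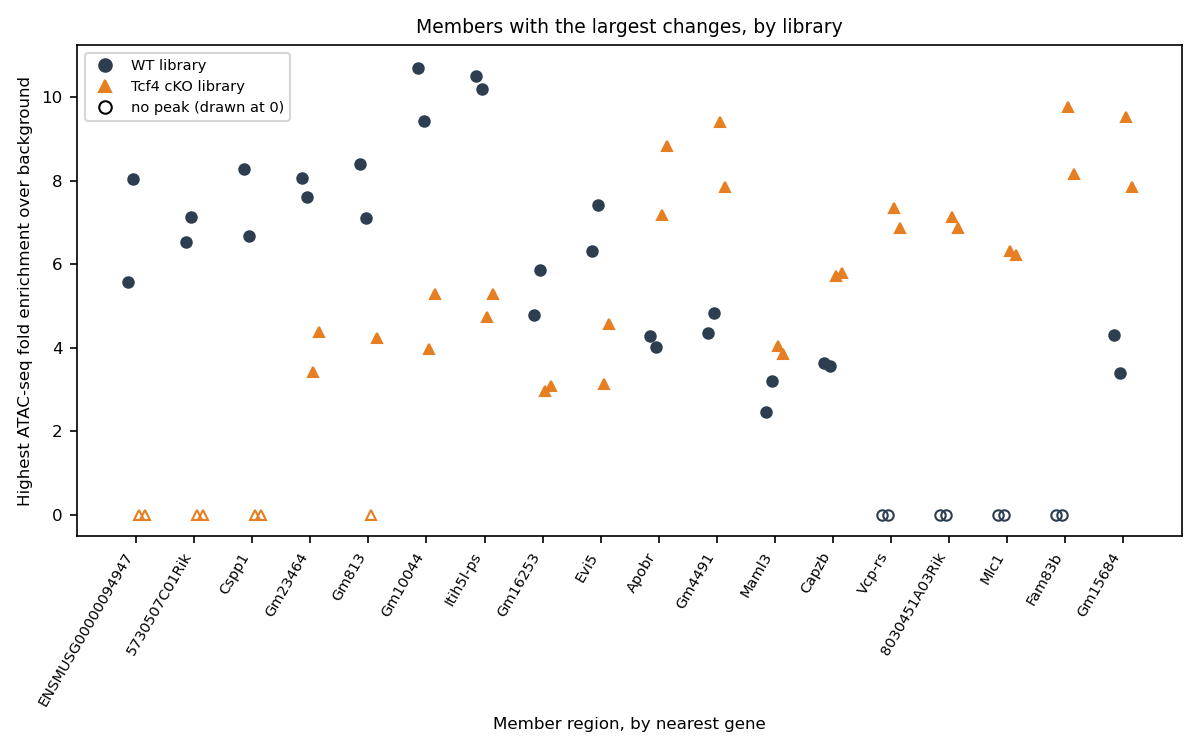
Highest ATAC-seq fold enrichment over local background on each named member in the 2 WT libraries (circles) and the 2 Tcf4 cKO libraries (triangles), with open symbols at 0 where a library had no peak. Cspp1 stood at 8.28 and 6.67 in WT with no peak in Tcf4 cKO, and Mlc1 had no peak in WT and stood at 6.31 and 6.21 in Tcf4 cKO.

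Peaks that were present in a single genotype could not be fitted, and 18 members had an ATAC-seq peak in both WT libraries alone and 12 in both Tcf4 cKO libraries alone, out of 23 and 12 among all promoters. These are 0.737 and 0.492% of members, beside 1.02 and 0.560% of all regions. The 2 lowest differences of the authors' means, at ENSMUSG00000094947 from 4.96 to 1.98 and at 5730507C01Rik from 5.04 to 2.17, were in regions with 90.7 and 37.5% of their words at more than 1 place in the genome. Cspp1, which codes for a centrosome and spindle pole protein, had none of its words elsewhere. Its member at chr1:10056225-10057069 had ATAC-seq peaks of 8.28 and 6.67 in WT and none in Tcf4 cKO, and the authors' mean went from 6.02 to 3.34. Tcf4 was on it at 4.04 and 4.95 and H3K4me1 at 3.39 and 3.70 in WT. The other Cspp1 member, at chr1:10039477-10040327, had authors' means of 8.88 in WT and 8.67 in Tcf4 cKO. Gm813 went from 6.72 to 4.46, with ATAC-seq at 8.39 and 7.11 in WT and at 4.23 in 1 Tcf4 cKO library alone, and Tcf4 at 5.35 and 6.90.

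Among the largest differences upwards, Vcp-rs, a processed pseudogene, went from 1.66 to 4.66 with 72.8% of its words at more than 1 place in the genome. 8030451A03Rik went from 2.43 to 5.15, with ATAC-seq peaks of 7.14 and 6.87 in the Tcf4 cKO libraries alone. Mlc1, a membrane protein of astrocyte endfeet, went from 4.20 to 6.92. Its ATAC-seq peaks of 6.31 and 6.21 were in the Tcf4 cKO libraries alone, while H3K4me1 was present in all 4 libraries, at 4.55 and 4.53 in WT and 3.66 and 3.00 in Tcf4 cKO. An H3K27ac peak of 3.66 appeared on Mlc1 in 1 Tcf4 cKO library. Fam83b went from 3.71 to 6.18, with ATAC-seq peaks of 9.77 and 8.15 in Tcf4 cKO and none in WT. Neither Mlc1 nor Fam83b had a Tcf4 peak.

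Most members also lacked peaks of both libraries for either mark in Tcf4 cKO. Neither mark was in both Tcf4 cKO libraries on 1865 members (76.4%), while 435 had H3K27ac alone, 108 had H3K27me3 alone and 33 had both. The rule applied to the Tcf4 cKO libraries gave 2837 promoters, of which the shared 1865 are 65.7%. Since members were chosen for lacking peaks of both WT libraries, movement away from that state is built in, and these counts have no test. The H3K27ac share of members was 35.7 and 14.2% in WT and 37.4 and 26.2% in Tcf4 cKO, with overlapping groups. The H3K27me3 share was 5.41 and 6.72% in WT and 12.1 and 10.0% in Tcf4 cKO. Of 468 members with H3K27ac in both Tcf4 cKO libraries, 68 had no H3K27ac peak in WT, and of 141 with H3K27me3, 58 had none in WT. Over all 13909 promoters the same counts were 84 for H3K27ac and 287 for H3K27me3. The 287 included 229 of the 8911 acetylated promoters, so such H3K27me3 was not particular to members. Peaks with a −log10 q-value of at least 5 were fewer, with 75 members for H3K27ac and 6 for H3K27me3.

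H3K27ac peaks of both Tcf4 cKO libraries that were absent from both WT libraries were strongest at Mrps18a, Gm13572, Gm23739, Gm20515, Zbtb20 and Fbxw9. Gm20515 and Zbtb20 each had an H3K27ac peak of 1 WT library within 500 bp. Mrps18a, a protein of the mitochondrial ribosome, had a fold enrichment of 4.92 and 5.30 in Tcf4 cKO. Zbtb20, a transcription factor that promotes astrocyte formation, had 4.85 and 4.37 in Tcf4 cKO at chr16:42907126-42907806. Its ATAC-seq values of 4.78 and 5.92 in WT and 6.06 and 6.54 in Tcf4 cKO did not overlap, and limma did not call it (log2 difference 0.33 ± 0.19, adjusted p = 0.443). Fbxw9, an F-box protein, had H3K27ac at 4.60 and 4.30 in Tcf4 cKO and Tcf4 at 4.30 and 4.31. Of the 32-base words of Fbxw9, 24.7% were found at more than 1 place in the genome.

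H3K27me3 absent from both WT libraries on the region itself was strongest at Mybl2, Gm10044, Nol4, Gm17080, C430049B03Rik and Filip1. Mybl2, a transcription factor of dividing cells, had an H3K27me3 fold enrichment of 3.66 and 3.53 in Tcf4 cKO, together with H3K27ac at 4.26 in 1 WT library and at 4.48 and 5.33 in Tcf4 cKO. Its ATAC-seq fold enrichment was 11.6 and 10.8 in WT and 9.93 and 10.5 in Tcf4 cKO, without overlap, and limma gave a log2 difference of -0.04 ± 0.13 (adjusted p = 0.952). Gm10044 at chr14:7791418-7792054, the other member of that gene, had H3K27me3 at 3.35 and 3.54. Nol4, a nuclear protein of neurons, had 3.32 and 3.30, with H3K27me3 of 1 WT library and H3K27ac of both within 500 bp. Filip1, a filamin-binding protein, had 3.33 and 3.18. None of the 6 was called by limma for accessibility.

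The most accessible members, by the authors' WT means, were promoters of Sox12, Ptma, E2f3, Hey1, Irs2 and Midn. Sox12, a SoxC transcription factor, stood at 10.55, Ptma, the chromatin protein prothymosin alpha, at 10.37 and E2f3, a cell-cycle factor, at 10.25. Hey1, a Notch target, stood at 10.07, Irs2, an adaptor of the insulin receptor, at 10.06 and Midn, which helps to degrade nuclear proteins, at 10.03. In Tcf4 cKO the authors' means of the 6 were 9.75 to 10.34, and no limma test called one of them. Sox12 had an H3K27ac peak of 3.09 in WT replicate 1 alone, and E2f3 had H3K27ac of both WT libraries within 500 bp. Irs2 and Midn had no peak of H3K4me1, H3K27ac or H3K27me3 in any library, though Tcf4 was on Irs2 at 3.41 and 4.28 and on Midn at 2.73 and 3.10. The MACS2 heights of these wide regions were moderate, 4.08 and 4.17 for Midn and 5.29 and 4.75 for Irs2 in WT ATAC-seq.

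Lists of cell type markers showed that members were spread unevenly over them, beside 17.5% of all promoters. Members were 6 of 14 open promoter regions of oligodendrocyte lineage genes, 7 of 22 of astrocyte lineage genes, 2 of 19 of interneuron genes of the medial ganglionic eminence, where 14 were Polycomb-marked, and 2 of 6 of projection neuron genes. They were 0 of 6 of endothelial and mural genes, which were all Polycomb-marked, and 2 of 2 of microglia genes, whose other 12 genes had no open promoter region. No member of these lists that limma could fit was called. Aldh1l1, an astrocyte lineage member, lacked an ATAC-seq peak in WT replicate 2 and was not fitted. In such mixed cells, fewer cells of a type and less open chromatin per cell cannot be told apart.

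Oligodendrocyte lineage members were Gpr17, Olig2, Pdgfra, Sox8 and 2 regions of Tcf7l2. Olig2, the lineage's bHLH factor, had an ATAC-seq fold enrichment of 3.63 and 3.60 in WT and 3.76 and 4.29 in Tcf4 cKO, and no histone or Tcf4 peak in any library. Gpr17, a receptor of committed precursors, had 3.72 and 3.36 in WT and 3.22 and 3.60 in Tcf4 cKO. The groups overlapped at Gpr17, although the authors' means went from 9.32 to 8.46, and Tcf4 covered it at 3.82 and 4.25. Pdgfra, the growth factor receptor of precursors, had 3.05 and 3.43 in WT and 4.47 and 3.66 in Tcf4 cKO, which did not overlap (log2 difference 0.41 ± 0.14, limma adjusted p = 0.0858). Sox8, a SoxE factor, had 5.96 and 5.31 against 4.63 and 6.18.

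Astrocyte lineage members were Nfib, Hes5, Nfia, Nfix, Slc1a3, Gfap and Aldh1l1. Nfib, an NFI factor of glial differentiation, had an ATAC-seq fold enrichment of 5.73 and 5.69 in WT and 5.31 and 4.87 in Tcf4 cKO, with Tcf4 at 4.14 and 4.20. Nfia had 5.29 and 4.45 against 3.83 and 3.53, and Nfix had 4.31 and 5.08 against 3.40 and 3.96. At the 3 NFI promoters the Tcf4 cKO libraries were below the WT libraries before centring, as was the median over all regions (7.56 and 8.28 in WT, 7.50 and 7.42 in Tcf4 cKO). After centring the log2 differences were -0.08 ± 0.18 at Nfib, -0.31 ± 0.16 at Nfia and -0.26 ± 0.16 at Nfix. Nfib and Nfia each had an acetylated promoter elsewhere, and the Nfia member had H3K27ac at 3.62 in WT replicate 1 and at 3.15 and 3.84 in Tcf4 cKO. The authors' means went down at Nfib (9.38 to 9.18) and Nfia (8.21 to 7.76) and up at Nfix (7.72 to 7.89), and limma called none of them (adjusted p 0.378 to 0.935). Hes5, an effector of Notch, had 4.33 and 4.38 against 4.22 and 3.95 and no other peak in any library. Slc1a3, the astrocyte glutamate transporter, had 6.23 and 6.17 against 5.43 and 4.94, with authors' means of 7.39 and 7.59, and H3K27ac of both WT libraries lay within 500 bp of it. Gfap, the intermediate filament of astrocytes, had 5.35 and 7.30 against 4.50 and 5.92. Aldh1l1, a folate enzyme used as an astrocyte marker, went from 4.55 to 6.82 in the authors' means, with ATAC-seq at 4.88 in 1 WT library and at 6.93 and 5.80 in Tcf4 cKO. For want of a peak in the other WT library, it was not tested by limma. It had H3K4me1 at 2.73 and 3.14 in the Tcf4 cKO libraries alone.

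The microglia members were P2ry12, a purinergic receptor, and C1qb, a complement subunit. P2ry12 had an ATAC-seq fold enrichment of 7.47 and 7.98 in WT and 8.76 and 6.36 in Tcf4 cKO. C1qb had 5.56 and 8.90 against 4.87 and 6.09, and its authors' mean went from 6.35 to 5.08. The genotypes overlapped at both, and neither had an H3K27ac, H3K27me3 or Tcf4 peak in any library. Sox6, an interneuron and glial factor, had 7.91 and 7.53 in WT and 6.32 and 6.32 in Tcf4 cKO, with Tcf4 at 5.43 and 6.76 (limma log2 difference -0.20 ± 0.18, adjusted p = 0.747). Gad1, which makes GABA, had 3.57 and 3.47 against 3.58 and 3.47. Bcl11b, a transcription factor of projection neurons, had 4.95 and 5.29 against 4.31 and 4.41. The germline gene Dazl, 1 of 3 open promoter regions of its list, had 12.7 and 13.2 against 12 and 11.1.

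Polycomb and Trithorax genes were members at 4 of 24 promoter regions (16.7%), close to the share of all promoters. Cbx2, a chromodomain reader of H3K27me3, had an ATAC-seq fold enrichment of 8.97 and 9.61 in WT and 7.61 and 7.22 in Tcf4 cKO. Both Tcf4 cKO libraries of Cbx2 were below the WT libraries, and limma did not call it (-0.23 ± 0.17, adjusted p = 0.616). Bmi1, a core subunit of Polycomb repressive complex 1, had 2.86 and 3.15 against 2.45 and 2.37. Ezh1, a methyltransferase of Polycomb repressive complex 2, had 4.86 and 7.08 against 6.70 and 6.31 at an alternative promoter, as another of its promoters was acetylated.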

How the data were processed

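ATAC-seq and Cut&Tag libraries were grouped by the genotype in their labels. The authors trimmed reads, mapped them to mm10 with Bowtie 2 and called peaks library by library with MACS2. The deposited peak lists give a fold enrichment (a ratio over local background) and −log10 p and q-values. The authors' deposited consensus table gives mean log2 normalized reads per genotype, beside their own fold changes, p-values and FDR, which were not used, nor was a deposited footprint table. Read totals of the libraries are not in these tables. Sequencing depth could be judged from peak numbers alone, which ran from 15085 to 72790 and limit the precision.

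Here, the highest fold enrichment per region and library was log2-transformed, centred on the median and fitted with limma 3.58.1 (R 4.3.3, empirical Bayes with trend), with Benjamini-Hochberg adjustment over all regions fitted. On simulated data for ATAC-seq (30379 regions) it recovered 15% of planted changes of 0.5 and 98% of changes of 1 log2 unit, and for H3K4me1 (14029 regions) 15 and 95%. Single values were compared by exact permutation tests over libraries. Overlaps and sequences were computed with Python 3.11.15, numpy 2.4.6, pandas 2.3.3 and pysam 0.24.0 on GRCm38 with GENCODE M21. Promoters were matched to 32-base words of the genome with numba 0.67.0, and figures drawn with matplotlib 3.10.9. The genes of 31 members were not matched in GENCODE M21. Named members were the most accessible, those with the largest changes, strongest Tcf4, H3K4me1 or newly called mark in Tcf4 cKO, up to 5 limma calls per direction, and members of marker lists. The members and lists were chosen with earlier results of these data known. Alternatives covered thresholds, overlaps, scaling, a replicate block and left-out libraries. Some members of the lists are not reported here, and single-cell RNA-seq was not analysed here.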

Additional observations from a re-analysis of the deposited data

How the results depend on the processing

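Of 91 alternatives to 20 results, 54 were counted as keeping the result, 36 as moving it and 1 as turning its direction. Those counted as keeping a result did not all keep its value. Among them, members numbered 3043 when promoters were set by GENCODE start sites, against 2441. The H3K4me1 share difference from acetylated promoters was -5.96 percentage points at −log10 q-values of at least 5, against -13.7. The number of members was 1091 when a peak in either WT library counted, 6029 with −log10 q-values of at least 5, 5596 with 50% of the region covered, and 1490 to 1953 when the marks came from a lone WT library. The difference in H3K4me1 share between members and acetylated promoters turned to 1.83 percentage points at 50% coverage. Calls among members were 29 under quantile normalization (21 higher, 8 lower), 0 without centring, where the median difference over all regions was -0.08, 31 with absent peaks set to 1 (12 higher, 19 lower, 1 shared with the 47), and 0 to 30 with a library left out, where a lone library was assumed to vary like the others. H3K27ac in both Tcf4 cKO libraries fell to 75 members at −log10 q-values of at least 5, 118 at 50% coverage and 68 without WT peaks, and was 640 to 914 with a library left out. H3K27me3 gave 6, 69, 58 and 244 to 295. Members past 1 log2 unit in the authors' means became 172 higher and 205 lower with a limit of 0.5 units. With the limit of 1 unit, 0 and 0 were left among members above the promoter median. The cause of these shifts was not tested.

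Replicate numbers gave no sign of pairing (correlation of deviations -0.0069 for ATAC-seq and 0.0092 for H3K4me1). With a replicate block, 52 members were called for ATAC-seq (39 higher, 13 lower), and the H3K4me1 difference stayed at 12.8 percentage points (exact permutation p = 0.5, pairs 7.01 and 18.5).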

Other observations

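Some members were open without a called peak of any mark measured, which does not show that the marks were absent. No peak of H3K4me1, H3K27ac or H3K27me3 in any of the 12 histone libraries was on 297 members (12.2%), and 217 of these had no Tcf4 peak either. The most accessible of the 217 were Pcdh10, a protocadherin, at an authors' mean of 9.44 in WT and 9.15 in Tcf4 cKO, Ocel1 at 9.26 and 9.04, Hes5 at 9.24 and 8.98, and Olig2 at 8.95 and 8.70. They were followed by Pank4 at 8.65 and 8.73 and Zfp462 at 8.64 and 8.52. In the 217, 2 (0.922%) passed 1 log2 unit upwards and 14 (6.45%) downwards in the authors' means, beside 2.87 and 4.18% of all regions.

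Gene families held members at unequal shares. Predicted genes named Gm or with the suffix Rik had 334 members in 870 open promoter regions (38.4%). They held 334 of all 2441 members, 8 of the 37 higher and 7 of the 10 lower limma calls. Replication-dependent histone genes had 7 in 24, among them Hist1h1a and Hist1h4d. Housekeeping families were lower, with 2 in 34 for the proteasome, 3 in 36 for respiratory complex I and 8 in 66 for the mitochondrial ribosome. Zinc finger genes had 29 in 325 (8.92%), and solute carriers 23 in 240. Cilia transport genes had 4 in 22, Mediator subunits 4 in 29, snoRNA host genes 0 in 4 and olfactory receptor genes 1 in 2. The lists were compared with no test, beside 17.5% of all promoters.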
